A study of Mus musculus with 133 samples.

Results

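Hepatocytes of young male mice (YM) at 52 h after partial hepatectomy (PH) were compared with hepatocytes of YM at 52 h after a sham operation. The libraries were chosen by their titles, leaving out replicates that carry the mark X, and 6 libraries of the 133 in the series met this rule, 3 after PH and 3 after sham. Titles read 52h for the PH libraries and Sh2d for the sham libraries, and both were taken here as 52 h. All of these mice were wild-type C57BL/6 of 11 to 14 weeks, without a transgene or drug. PH took away the median and left lobes, whereas the sham operation was a midline incision that was closed again. The liver was then digested with collagenase and hepatocytes were collected by low-speed centrifugation, so the cells measured are those that this isolation recovered. Transcripts were counted by 3'UTR-seq (CEL-seq2), which reads the 3' end of an mRNA and tags each molecule with a unique molecular identifier (UMI). The study states 3 mice for a PH group and gives no number for sham, so p-values measure a spread between libraries, which may be technical. That spread was estimated from 24 libraries together, these 6 and those of the other groups set beside them below.

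In the adult liver nearly all hepatocytes rest outside the cell cycle. After PH they receive cytokine and growth factor signals, make cyclin D1 and enter S phase, in which E2F factors drive genes for DNA replication and nucleotide synthesis. Genes of mitosis follow in G2, when the MuvB complex with B-Myb and FOXM1 switches them on together. The same cells go on with the work of the liver, such as the secretion of plasma proteins, bile formation and the handling of nutrients and foreign compounds, and these functions follow the circadian clock and, in rodents, the sex of the animal. The comparison of PH with sham at the same time asks which of these programmes differed in the regenerating liver beyond the effects of anaesthesia and laparotomy.

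The 6 libraries held 717768 to 2221335 counts and 9967 to 10860 detected genes. Levels are given as CPM, that is counts relative to the library size after scaling by the trimmed mean of M-values (TMM), in the order of replicates 1, 2 and 3. Pearson's correlation of log2(CPM + 4) across genes was 0.96 to 0.978 between PH libraries, 0.955 to 0.983 between sham libraries and 0.897 to 0.949 between a PH and a sham library, where genes are not independent replicates. Library titles name a mix, and what a mix is was not stated in the sources used here. PH replicates 2 and 3 and sham replicates 1 and 2 share mix 18, whereas PH replicate 1 is of mix 14 and sham replicate 3 of mix 21, so that only mix 18 holds both groups. The hepatocyte label was met: albumin (Alb) was at 6335, 5330.4 and 5491 CPM after PH against 4656, 7837 and 5065 CPM after sham, and the 15 hepatocyte markers summed to 43790 to 60060 CPM after PH and 43660 to 67810 CPM after sham with none of them called. Fewer cells of a type and less RNA per cell cannot be told apart in such bulk samples. The label male was met by Ddx3y, a gene of the Y chromosome, at 75.4, 92.8 and 85.8 CPM after PH against 124, 108 and 185 CPM after sham. The 5 genes of the sex check (Xist, Ddx3y, Eif2s3y, Kdm5d and Uty) summed to 116 to 141 CPM after PH and 164 to 281 CPM after sham. All 5 had a log2 fold change below 0, and Eif2s3y was called lower. Xist is not reported singly here.

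At 52 h, 656 genes were higher and 457 lower after PH than after sham among 11046 genes tested, that is 5.94% and 4.14% of them. Counts of called members in the gene lists below stand beside these shares. A gene was called at an adjusted p (Benjamini-Hochberg, edgeR quasi-likelihood test) under 0.1 with at least a 2-fold change, and values after ± are standard errors of log2 fold changes of PH over sham. The higher side held the larger changes, with 265 genes at 4-fold or more and 98 at 16-fold or more, against 87 and 16 on the lower side. Of the 1113 called genes, 994 had groups that did not overlap in CPM, as did 33.7% of all genes tested. The median log2 fold change of all genes was -0.0036. Of the 656 higher genes, 124 belonged to 7 lists of proliferation genes with 193 members tested, and 49 of the 98 genes with a 16-fold change were among them. Within mix 18, with 2 libraries a group, 323 genes were called higher and 174 lower (2.95% and 1.59%), and with the mix as a term of the model 526 and 339 (4.76% and 3.07%). With only the 6 libraries in the model 631 genes were called higher and 389 lower, 600 and 376 of them shared with the 24-library model.

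**Figure D1:**
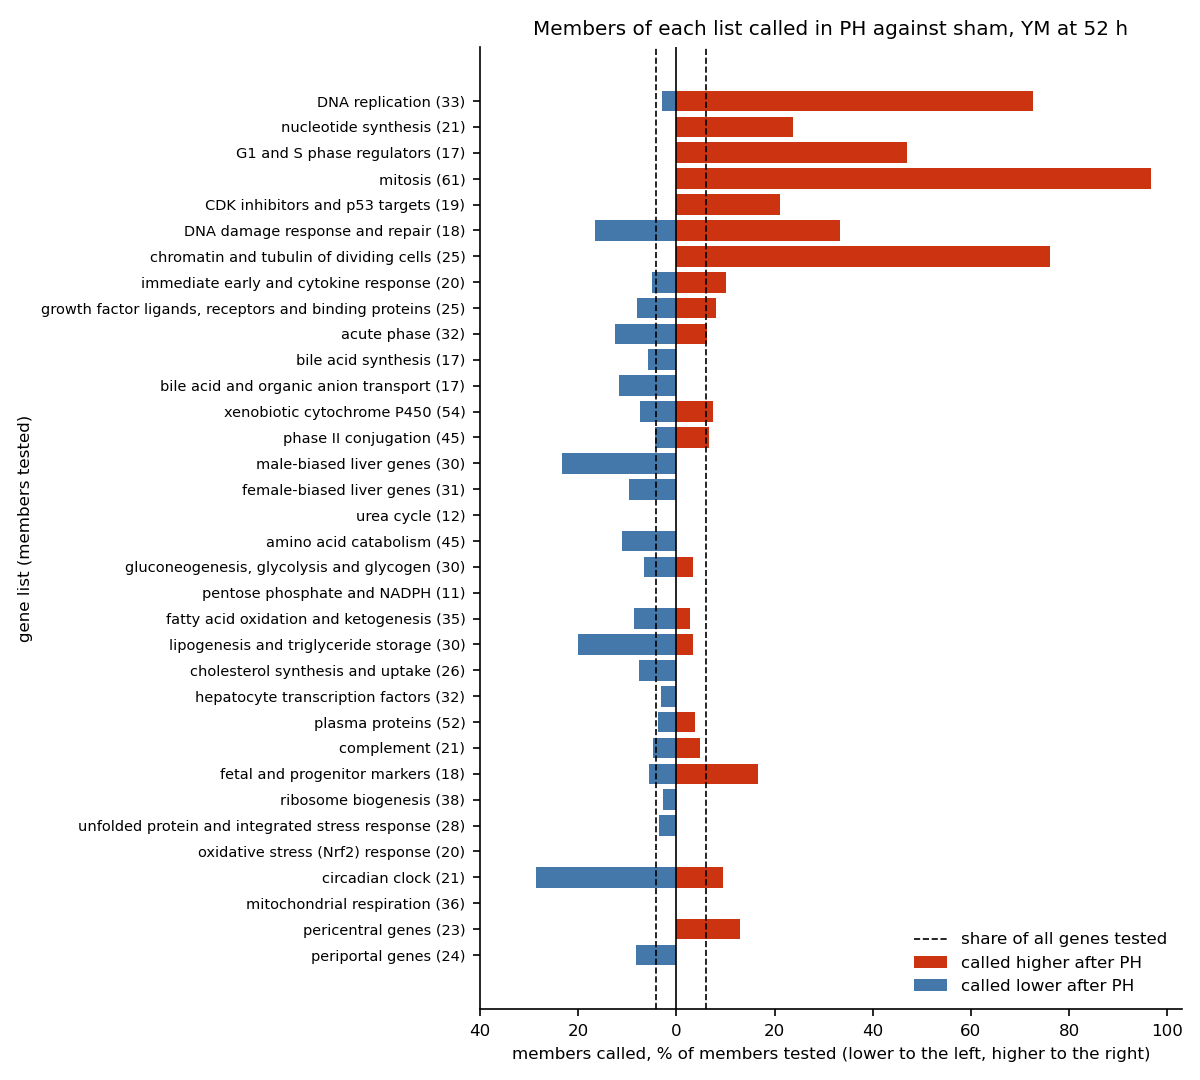
Share of the members tested of each of 34 gene lists that were called lower (blue, to the left) or higher (red, to the right) after PH than after sham in YM at 52 h, with dashed lines at the shares of all genes tested, 4.14% lower and 5.94% higher. The bars of mitosis (59 of 61 higher), chromatin and tubulin (19 of 25) and DNA replication (24 of 33) reach furthest to the right, and those of the circadian clock (6 of 21 lower) and male-biased genes (7 of 30) furthest to the left.

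Of 61 genes of mitosis tested, 59 were higher after PH and none was lower, with a median log2 fold change of 4.72. In the deposited counts 23 of the 61 held values that were not whole, and all 23 were called higher. Such values were in 445 of the 11046 genes tested and in 73 of the 656 called higher. Their part in this result was not tested. Cdk1, the kinase that starts mitosis (chr10:69335146-69352938 on GRCm38, a protein-coding gene), stood at 250.5, 195 and 304 CPM after PH against 4.1, 2.61 and 5.74 CPM after sham (log2 fold change 5.71 ± 0.35, adjusted p = 2.58e-10). Its partner cyclin B1 (Ccnb1) was at 33, 18.1 and 32.2 CPM after PH against 1.17, 0 and 1.15 CPM after sham (log2 fold change 4.67 ± 0.60, adjusted p = 9.76e-06). Cyclin A2 (Ccna2), which acts in S phase and G2, was at 27.3, 22.4 and 21.5 CPM after PH against 0.586, 0 and 0.766 CPM after sham (log2 fold change 5.19 ± 0.82, adjusted p = 1.27e-04). Both cyclins were at or near 0 in every sham library, whereas Cdk1 was low but counted in each. Mki67, the gene of the Ki-67 antigen of dividing cells (chr7:135689784-135716361), was at 97.6, 90.7 and 113 CPM after PH against 1.17, 2.61 and 3.06 CPM after sham (log2 fold change 5.37 ± 0.45, adjusted p = 2.61e-08). Top2a, which untangles sister chromatids, was at 355, 248 and 315 CPM after PH against 7.61, 5.22 and 11.1 CPM after sham (log2 fold change 5.10 ± 0.46, adjusted p = 7.43e-08), a 34.3-fold difference. For each of these 5 genes all PH libraries lay above all sham libraries.

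The machinery that attaches and separates chromosomes rose with them. Spc25, a subunit of the NDC80 kinetochore complex, was at 184, 173 and 162 CPM after PH against 11.7, 13 and 14.2 CPM after sham (log2 fold change 3.72 ± 0.24, adjusted p = 6.87e-10). Knl1, the scaffold of the outer kinetochore, was at 207, 135 and 193 CPM after PH against 2.93, 0 and 0 CPM after sham (log2 fold change 7.38 ± 0.73, adjusted p = 2.54e-07), and without sham replicate 1 its fitted value was 11.36. Cenph, of the inner kinetochore, was at 68.9, 68.6 and 64.4 CPM after PH against 0, 0 and 1.53 CPM after sham (log2 fold change 6.32 ± 0.98, adjusted p = 1.41e-04), and without sham replicate 3 its fitted value was 9.95. For both, 2 of the 3 sham libraries were at 0, so the size of the fold rests on 1 library. Birc5 (survivin), a subunit of the chromosomal passenger complex, was at 40.2, 39.5 and 44.1 CPM after PH against 0.586, 1.3 and 1.91 CPM after sham (log2 fold change 4.83 ± 0.86, adjusted p = 4.09e-04). Aurkb, the kinase of that complex, was low throughout, at 2.87, 6.4 and 2.38 CPM after PH against 0.586, 0 and 0.383 CPM after sham (log2 fold change 3.30 ± 1.31, adjusted p = 0.0938), and the call was lost without PH replicate 1 (3.50), without PH replicate 2 (2.58), without PH replicate 3 (3.47), without sham replicate 1 (3.65), without sham replicate 2 (3.09) and without sham replicate 3 (3.27), the values in brackets being log2 fold changes without that library. Cdc20, the activator of the anaphase-promoting complex, was at 12.9, 29.9 and 57.2 CPM after PH against 0.586, 0 and 0.383 CPM after sham (log2 fold change 6.08 ± 1.15, adjusted p = 8.74e-04). Foxm1, which encodes the transcription factor of G2 genes, was at 17.9, 21 and 22.6 CPM after PH against 0.586, 0 and 0.383 CPM after sham (log2 fold change 5.48 ± 0.96, adjusted p = 4.34e-04). Genes with only 1 to 3 counts over the sham libraries were also compared by summed counts, with exact 95% intervals that cover counting error only: the ratio was 40-fold (13.4 to 197) for Ccna2, 75.6-fold (20.6 to 630) for Cdc20, 51.9-fold (14 to 434) for Foxm1 and 12.1-fold (3.0 to 106) for Aurkb.

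In 8 of the mitotic genes every sham library was at 0, and the fold is then a lower bound, taken against a floor of 3 counts in each sham library. Plk1, a kinase of mitotic entry and spindle assembly (chr7:122159439-122169873), was at 1457, 925 and 1204 CPM after PH and thus at least 526-fold higher (adjusted p = 1.40e-04). Prc1, which bundles the microtubules of the central spindle, was at 505, 384 and 392 CPM and at least 188-fold higher (adjusted p = 3.11e-08). The counts had passed a batch correction before deposit, and in the 11 unmarked YM libraries of normal liver, of 44 h and of 1 month the counts of Plk1 were 0 or 1 and those of Prc1 were 1, while here they ran from 1010 to 2600 and from 329 to 1079. These counts are not scaled to library size, and the libraries of 44 h and of 1 month had totals of another order. The part of the batch correction in the levels of Plk1 and Prc1 was not tested. Ube2c, the ubiquitin-conjugating enzyme of the anaphase-promoting complex, was at 14.4, 30.2 and 42.9 CPM (at least 12.8-fold higher, adjusted p = 0.0024). Espl1 (separase), which cuts cohesin, was at 20.1, 25.2 and 19.1 CPM (at least 9.45-fold higher, adjusted p = 9.85e-05). Ncapg, a condensin subunit, was at 8.61, 17.4 and 26.2 CPM (at least 7.66-fold higher, adjusted p = 0.00289). With such genes at their bound the median of the list was 4.30.

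The 2 mitotic genes that were not called were Pttg1 and Cenpk. Pttg1 (securin), the inhibitor of separase, was at 74.6, 106 and 77.5 CPM after PH against 135, 120 and 136 CPM after sham (log2 fold change -0.58, adjusted p = 0.00498), with all PH libraries below all sham libraries by less than 2-fold. Cenpk, of the inner kinetochore, was low, at 2.87, 5.33 and 1.19 CPM after PH against 1.17, 0 and 1.91 CPM after sham (log2 fold change 1.43, adjusted p = 0.14). Within mix 18, 49 of 61 mitotic genes were called higher, with a median log2 fold change of 5.20. When the mix entered the 24-library model as a covariate, 56 were called higher.

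**Figure D2:**
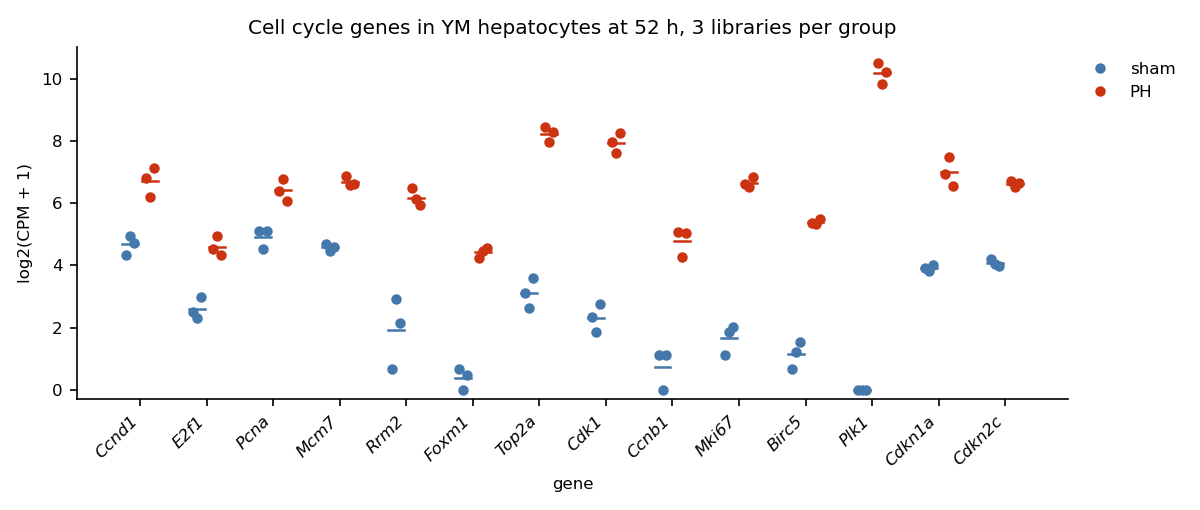
Levels of 14 cell cycle genes on the scale of log2(CPM + 1) in the 3 sham libraries (blue) and the 3 PH libraries (red) of YM at 52 h, with a bar at each group's mean. All 3 red points lie above all 3 blue points for each of the 14 genes, and the 3 sham libraries of Plk1 lie at 0.

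Since mitotic genes rose together, their promoters are shown for the element known to be shared among them, the cell cycle genes homology region (CHR), searched here as the letters TTTGAA or TTTAAA on both strands. Promoter windows of 250 bases before to 50 bases after each start site came from RefSeq on GRCm38.p6 and covered 49 of the 59 mitotic genes called higher. These letters were in 44 of their 52 windows (84.6%), in 27.6% of all 32851 windows and in 20.4% of the windows of the genes tested. The 8 called mitotic genes of lowest adjusted p that held the letters follow, each as 30 bases of the gene's strand, 5′ to 3′, with the match nearest to the start site in capitals. A match describes the letters and is not a proven site.
Cdk1: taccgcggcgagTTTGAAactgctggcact
Spc25: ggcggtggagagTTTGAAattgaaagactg
Mki67: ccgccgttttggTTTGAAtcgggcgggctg
Prc1: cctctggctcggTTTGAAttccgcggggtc
Ccnb2: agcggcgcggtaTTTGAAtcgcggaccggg
Top2a: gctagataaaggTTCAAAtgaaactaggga
Ncapd2: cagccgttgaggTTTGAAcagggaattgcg
Cenpa: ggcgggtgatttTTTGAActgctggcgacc
The Cdk1 stretch lies at chr10:69352910-69352939 on the minus strand, and its match begins 15 bases before the RefSeq start site. This start site lies inside the span given for Cdk1 above, which is from GENCODE. The Prc1 stretch lies at chr7:80294434-80294463 on the plus strand, and its match begins 5 bases before the RefSeq start site of Prc1. The others lie at chr2:69206172-69206201 (Spc25), chr7:135716460-135716489 (Mki67), chr9:70421533-70421562 (Ccnb2), chr11:99024195-99024224 (Top2a, the match being on the opposite strand), chr6:125191692-125191721 (Ncapd2) and chr5:30666890-30666919 (Cenpa). All but the last of these are genes of the minus strand. CCAAT, the box of NF-Y that often stands near a CHR, was in 73.1% of the windows of the mitotic genes and in 37.4% of all windows. E2F letters (TTTGGCGC, TTTCCCGC, TTTCGCGC or TTTGCCGC) were in 9.62% and 2.26%. The 3 sets of letters were searched separately and their matches may overlap.

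Genes of DNA replication were higher as well. Of 33 tested, 24 were higher and 1 was lower, with a median log2 fold change of 1.74, and within mix 18, 13 were higher and 1 lower with a median of 2.07. Mcm7, a subunit of the replicative MCM helicase, was at 117, 96 and 97.7 CPM after PH against 24.6, 20.9 and 23.4 CPM after sham (log2 fold change 2.15 ± 0.21, adjusted p = 2.03e-07). Gins1, of the GINS complex that joins this helicase, was at 89.7, 88.9 and 93 CPM after PH against 28.1, 30 and 29.9 CPM after sham (log2 fold change 1.62 ± 0.17, adjusted p = 6.79e-07). Cdc45, the other partner of the helicase, was at 12.2, 12.4 and 13.1 CPM after PH against 0, 0 and 0.383 CPM after sham (log2 fold change 5.59 ± 0.57, adjusted p = 7.30e-07), a ratio of summed counts of 63.5-fold (11 to 2550). The 3 PH libraries of Gins1 and of Cdc45 lay close together and far above the sham libraries. Chaf1b, of the chromatin assembly factor that follows the fork, was at 15.1, 19.2 and 13.1 CPM after PH against 0, 0 and 1.91 CPM after sham (log2 fold change 4.00 ± 0.45, adjusted p = 1.52e-06, and 7.91 without sham replicate 3, the only sham library above 0). Pcna, the sliding clamp, was at 83.2, 109.9 and 66.7 CPM after PH against 33.4, 22.2 and 33.3 CPM after sham (log2 fold change 1.52 ± 0.20, adjusted p = 1.10e-05). The exception was Mcm10, an initiation factor, which fell, at 27.3, 29.2 and 26.2 CPM after PH against 99, 52.2 and 95.7 CPM after sham (log2 fold change -1.61 ± 0.34, adjusted p = 0.00176). Gins4, Rfc2 and Slbp were not called, with log2 fold changes of 0.71, 0.89 and 0.50.

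The promoters of the replication genes are shown for the E2F letters, since E2F factors act at genes of S phase. The letters were in 9 of 23 windows (39.1%) of the 19 replication genes with a window, out of 24 called higher, in 2.26% of all windows and in 3.88% of those of the genes tested. CHR letters were in 21.7% of the windows of the replication genes. The 4 genes of lowest adjusted p with E2F letters follow in the same form.
Mcm7: gggtgacgacgTTTCGCGCcaatttcggtt
Mcm5: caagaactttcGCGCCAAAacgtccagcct
Lig1: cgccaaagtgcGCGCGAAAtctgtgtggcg
Mcm6: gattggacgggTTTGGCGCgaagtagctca
They lie at chr5:138171849-138171878 (Mcm7, minus strand), chr8:75109349-75109378 (Mcm5, plus strand), chr7:13278841-13278870 (Lig1, plus strand) and chr1:128359734-128359763 (Mcm6, minus strand), with the matches of Mcm5 and Lig1 on the opposite strand. Mcm5 and Mcm6, of the same helicase, had log2 fold changes of 4.33 and 2.68, and Lig1, which seals Okazaki fragments, of 2.91.

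In nucleotide synthesis 5 of 21 members rose and none fell (median 0.44), and the 4 named here serve the supply of deoxynucleotides. Rrm2, the regulatory subunit of ribonucleotide reductase, was at 88.3, 69 and 60.8 CPM after PH against 0.586, 6.52 and 3.45 CPM after sham (log2 fold change 4.59 ± 0.46, adjusted p = 3.35e-07). Its catalytic subunit Rrm1 was at 17.9, 28.8 and 26.2 CPM after PH against 2.34, 2.61 and 6.13 CPM after sham (log2 fold change 2.53 ± 0.38, adjusted p = 6.80e-05). Thymidylate synthase (Tyms) was at 11.5, 16.7 and 14.3 CPM after PH against 2.34, 5.22 and 4.59 CPM after sham (log2 fold change 1.87 ± 0.33, adjusted p = 3.59e-04). All 3 had groups that did not overlap. Dut, which removes dUTP, was at 30.9, 24.5 and 14.3 CPM after PH against 10.5, 7.83 and 6.51 CPM after sham (log2 fold change 1.56 ± 0.26, adjusted p = 2.04e-04, and 1.14 within mix 18). The purine enzyme Paics, at 294, 305 and 273 CPM after PH against 337, 233 and 274 CPM after sham, was not called (log2 fold change 0.04, adjusted p = 0.91). Of the folate enzymes, Shmt1 and Shmt2 gave log2 fold changes of -0.04 and 0.29 and were not called either.

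Of 17 regulators of G1 and S phase, 8 rose and none fell (median 1.2, and 1.41 within mix 18). Cyclin D1 (Ccnd1), which carries growth factor signals into the cell cycle, was at 112, 72.5 and 139 CPM after PH against 19.3, 30 and 25.7 CPM after sham (log2 fold change 2.11 ± 0.47, adjusted p = 0.00286). E2f1 was at 22.2, 29.9 and 19.1 CPM after PH against 4.69, 3.91 and 6.89 CPM after sham (log2 fold change 2.14 ± 0.34, adjusted p = 1.15e-04). E2f2 was at 32.3, 22.8 and 26.2 CPM after PH against 3.51, 9.13 and 3.83 CPM after sham (log2 fold change 2.51 ± 0.44, adjusted p = 3.97e-04). Both of these activating E2F factors were low in absolute level after sham and without overlap between groups. Rbl1 (p107), a pocket protein that is itself an E2F target, was at 23, 23.5 and 28.6 CPM after PH against 4.1, 0 and 3.83 CPM after sham (log2 fold change 2.88 ± 0.42, adjusted p = 5.20e-05), whereas its relative Rbl2 (p130), of resting cells, was at 24.4, 24.5 and 15.5 CPM after PH against 42.8, 26.1 and 31.8 CPM after sham and was not called (log2 fold change -0.61, adjusted p = 0.0551). Dbf4, which activates the kinase of origin firing, was at 70.3, 60.1 and 62 CPM after PH against 9.37, 20.9 and 11.9 CPM after sham (log2 fold change 2.33 ± 0.42, adjusted p = 4.74e-04). Cyclin E1 (Ccne1), at 2.15, 3.91 and 2.38 CPM after PH against 0.586, 1.3 and 1.15 CPM after sham, was not called (log2 fold change 1.59, adjusted p = 0.22), nor were Cdk4 (log2 fold change 0.53, adjusted p = 0.0802) and Cdk6 (log2 fold change 0.09, adjusted p = 0.79).

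In the list of CDK inhibitors and p53 targets 4 of 19 rose and none fell. Cdkn1a (p21) was at 121, 179 and 94.2 CPM after PH against 14.1, 13 and 15.3 CPM after sham (log2 fold change 3.22 ± 0.44, adjusted p = 2.32e-05). Cdkn2c (p18) was at 105, 91.7 and 98.9 CPM after PH against 17.6, 15.7 and 14.9 CPM after sham (log2 fold change 2.61 ± 0.23, adjusted p = 7.34e-08). Cdkn2d (p19) was at 15.1, 20.3 and 15.5 CPM after PH against 4.1, 6.52 and 5.74 CPM after sham (log2 fold change 1.71 ± 0.26, adjusted p = 7.30e-05). Each of the 3 had its lowest PH library at more than 2 times its highest sham library. The inhibitors Cdkn1b (p27, log2 fold change 0.71, adjusted p = 0.012) and Cdkn1c (p57, log2 fold change -0.29, adjusted p = 0.89) were not called. The p53 target Phlda3 was at 7.18, 6.4 and 5.96 CPM after PH and 0 in each sham library (at least 2.86-fold higher, adjusted p = 4.21e-04). The p53 targets Trp53inp1, Gadd45g and Btg2 had log2 fold changes of 0.20, 0.38 and 0.03 and were not called.

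In DNA damage response and repair 6 of 18 members rose and 3 fell. H2afx, the histone that is phosphorylated at breaks, was at 45.2, 35.9 and 29.8 CPM after PH against 4.69, 3.91 and 6.51 CPM after sham (log2 fold change 2.77 ± 0.31, adjusted p = 1.31e-06). Bard1, the partner of BRCA1, was at 25.8, 17.1 and 29.8 CPM after PH against 0, 0 and 1.15 CPM after sham (log2 fold change 5.13 ± 1.26, adjusted p = 0.00666, and 8.38 without sham replicate 3), a ratio of summed counts of 36.6-fold (12.2 to 180). Both rose, whereas the sensor kinases Atr (log2 fold change 0.77, adjusted p = 0.12) and Atm (log2 fold change 0.50, adjusted p = 0.61) were not called. Rad50, of the MRN complex, was at 14.4, 14.6 and 13.1 CPM after PH against 7.03, 0 and 7.66 CPM after sham (log2 fold change 1.21, adjusted p = 0.0198), and the call was lost without sham replicate 2 (0.93). Those called lower were Parp2 (log2 fold change -4.18, adjusted p = 0.0306), Xrcc5 (log2 fold change -1.76, adjusted p = 0.046) and Rad52 (log2 fold change -1.07, adjusted p = 0.0473), all of which hung on single libraries. For Parp2 the call was lost without PH replicate 2 (-4.15) and without sham replicate 3 (-3.65). For Xrcc5 the call was lost without PH replicate 2 (-1.33), without PH replicate 3 (-1.47), without sham replicate 1 (-1.64) and without sham replicate 2 (-1.53), and its value was -2.71 without PH replicate 1. For Rad52 the call was lost without PH replicate 1 (-1.0), without PH replicate 2 (-0.91) and without sham replicate 3 (-0.99). The number called lower in this list was thus 0 without PH replicate 2 and 1 without sham replicate 3.

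Chromatin and tubulin genes of dividing cells were called higher in 19 of 25 cases and lower in none (median 1.71, and 2.07 within mix 18). Stmn1 (stathmin), which regulates microtubule growth, was at 215, 181 and 277 CPM after PH against 6.44, 11.7 and 13.8 CPM after sham (log2 fold change 4.35 ± 0.32, adjusted p = 3.82e-09). The tubulin Tuba1b was abundant in both groups, at 282, 404 and 337 CPM after PH against 60.3, 52.2 and 67.4 CPM after sham (log2 fold change 2.49 ± 0.18, adjusted p = 3.27e-09). Tubb5, another tubulin, was at 637, 717 and 735 CPM after PH against 142, 184 and 169.6 CPM after sham (log2 fold change 2.08 ± 0.21, adjusted p = 3.35e-07). The tubulins thus differed less in fold than Stmn1 and from a higher level. Asf1b, a histone chaperone, was at 52.4, 49.1 and 45.3 CPM after PH against 4.1, 0 and 5.36 CPM after sham (log2 fold change 3.58 ± 0.38, adjusted p = 7.45e-07). Hmgb1, Anp32e and Nasp were not called, with log2 fold changes of 0.27, 0.16 and 0.04. Ndc1, a membrane protein of the nuclear pore that no list held, was at 87.6, 101 and 98.9 CPM after PH against 22.8, 17 and 20.7 CPM after sham (log2 fold change 2.21 ± 0.19, adjusted p = 4.93e-08).

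Among the genes with the largest rises were Cdca2, Kifc1 and Aunip, which no list held, and Esco2 of the mitosis list. Cdca2, a chromosome-bound phosphatase regulator, was at 421, 388 and 309 CPM after PH against 0, 0 and 5.36 CPM after sham (log2 fold change 7.10 ± 1.08, adjusted p = 7.54e-05, and 12.41 without sham replicate 3). Kifc1, a minus-end kinesin, was at 35.9, 24.5 and 27.4 CPM after PH against 0, 0 and 0.383 CPM after sham (log2 fold change 6.79 ± 0.99, adjusted p = 7.13e-05), a ratio of summed counts of 143-fold (25.3 to 5690). Esco2, a cohesin acetyltransferase, was at 10.8, 17.8 and 28.6 CPM after PH against 0, 0 and 0.383 CPM after sham (log2 fold change 6.12 ± 0.96, adjusted p = 1.12e-04), a ratio of summed counts of 89.7-fold (15.7 to 3580). Of these 3 genes, Cdca2 was clearly counted in 1 sham library, and the other sham values were at or near 0. Aunip, a centrosome protein, was at 15.1, 26 and 27.4 CPM after PH and 0 in each sham library (at least 10-fold higher, adjusted p = 0.00251).

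Calls among genes that define the hepatocyte were few, as among all genes. Of 32 hepatocyte transcription factors none rose and 1 fell, and of 52 plasma protein genes 2 rose and 2 fell, where 5.94% and 4.14% of all genes did. Log2 fold changes were below 0 in 22 of these factors (median -0.31) and in 41 of these plasma protein genes (median -0.27). They were below 0 in 5557 of the 11046 genes tested. Hnf4a, the master factor of hepatocytes, was at 269, 309 and 265 CPM after PH against 303, 351 and 319.7 CPM after sham (log2 fold change -0.20, adjusted p = 0.37). Cebpa, a factor of the resting hepatocyte, was at 88.3, 46.2 and 45.3 CPM after PH against 114, 130.4 and 96.1 CPM after sham, with PH below sham in every library but by less than 2-fold (log2 fold change -0.90, adjusted p = 0.0201). The factor called lower was Nr1h4 (FXR), the bile acid receptor, at 21.5, 19.9 and 17.9 CPM after PH against 42.8, 50.9 and 42.1 CPM after sham (log2 fold change -1.15 ± 0.20, adjusted p = 3.86e-04). Apoa4, an apolipoprotein of triglyceride export, rose, at 835, 994 and 886 CPM after PH against 131, 282 and 226 CPM after sham (log2 fold change 2.10 ± 0.28, adjusted p = 1.76e-05). Lect2, a hepatokine, rose too, at 619, 655 and 495 CPM after PH against 235, 278 and 224 CPM after sham (log2 fold change 1.27 ± 0.17, adjusted p = 1.58e-05). These were the 2 plasma protein genes called higher, both with groups far apart, whereas Alb itself had a log2 fold change of -0.03 (adjusted p = 0.96). Serpina6, which carries glucocorticoids, was called lower, at 48.8, 71.1 and 39.3 CPM after PH against 113, 86.1 and 157 CPM after sham (log2 fold change -1.14, adjusted p = 0.00493), and the call was lost without PH replicate 3 (-0.99) and without sham replicate 3 (-0.87). Hrg, a histidine-rich glycoprotein, was called lower, at 208, 195 and 116 CPM after PH against 521, 261 and 312 CPM after sham (log2 fold change -1.07, adjusted p = 0.0388), and the call was lost without PH replicate 3 (-0.86) and without sham replicate 1 (-0.72).

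None of 12 urea cycle genes, 36 genes of mitochondrial respiration, 11 of the pentose phosphate pathway or 20 of the Nrf2 response was called, with list medians of -0.33, -0.09, -0.12 and 0.27. Of 38 genes of ribosome biogenesis 1 fell and none rose (median 0.12), and it was Noc2l, at 7.89, 5.33 and 11.9 CPM after PH against 17, 23.5 and 14.9 CPM after sham (log2 fold change -1.23, adjusted p = 0.00354), and the call was lost without PH replicate 2 (-0.87). Growing cells make ribosomes, and at this time nucleophosmin (Npm1), abundant in both groups at 89, 126 and 101 CPM after PH against 125, 84.8 and 126 CPM after sham, was not called (log2 fold change -0.09, adjusted p = 0.77). Of 28 genes of the unfolded protein response 1 fell, Chac1, which degrades glutathione, at 5.02, 7.47 and 0 CPM after PH against 28.7, 6.52 and 19.9 CPM after sham (log2 fold change -1.91, adjusted p = 0.0524), and the call was lost without PH replicate 1 (-1.87), without PH replicate 3 (-1.61), without sham replicate 1 (-1.55) and without sham replicate 3 (-1.92). The chaperone Hspa5 (BiP) was not called (log2 fold change 0.17, adjusted p = 0.69). In the complement list 1 of 21 rose and 1 fell, beside 5.94% higher and 4.14% lower among all genes. Cfhr2, a factor H-related protein, was at 689, 364 and 1129 CPM after PH against 355, 259.6 and 452 CPM after sham (log2 fold change 1.01, adjusted p = 0.0175), and the call was lost without PH replicate 3 (0.55) and without sham replicate 2 (0.84). C2, of the classical pathway, was at 72.5, 83.2 and 70.3 CPM after PH against 197, 124 and 173 CPM after sham (log2 fold change -1.13, adjusted p = 9.18e-04), and the call was lost without sham replicate 1 (-0.99).

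Clock genes moved in both directions. Of 21 tested, 2 rose and 6 fell (median -0.50), and within mix 18, 1 rose and 3 fell. Arntl (Bmal1), the core activator (chr7:113207465-113314126), was at 7.89, 6.4 and 10.7 CPM after PH against 0, 0 and 1.15 CPM after sham (log2 fold change 3.61 ± 0.65, adjusted p = 4.34e-04), a ratio of summed counts of 12.8-fold (4.05 to 64.6), and without sham replicate 3 its fitted value was 6.85. Dbp, a clock output factor (chr7:45705088-45710203), was at 4.31, 2.84 and 3.58 CPM after PH against 19.9, 32.6 and 31.4 CPM after sham (log2 fold change -3.0 ± 0.65, adjusted p = 0.00253). Ciart, a clock repressor, was at 2.87, 2.13 and 4.77 CPM after PH against 14.6, 39.1 and 27.2 CPM after sham (log2 fold change -3.14 ± 0.78, adjusted p = 0.00731). Both were lower in every PH library than in any sham library. Tef, a relative of Dbp, was at 25.1, 33.4 and 23.8 CPM after PH against 53.9, 117 and 105 CPM after sham (log2 fold change -1.67 ± 0.34, adjusted p = 0.00148). Nr1d2 (REV-ERB beta), a repressor of Arntl, was at 55.3, 62.6 and 71.5 CPM after PH against 112, 149 and 152 CPM after sham (log2 fold change -1.13 ± 0.23, adjusted p = 0.00147). Arntl and the other 4 are known to peak at opposite phases of the day, and they stood on opposite sides here. Npas2, an activator like Clock, was low, at 5.74, 2.84 and 3.58 CPM after PH against 1.17, 0 and 0 CPM after sham (log2 fold change 3.09, adjusted p = 0.0105), a ratio of summed counts of 9.58-fold (2.31 to 84.8), the call was lost without sham replicate 3 (2.2), and the fitted value was 5.88 without sham replicate 1. Within mix 18 the log2 fold changes of Dbp, Ciart, Tef and Nr1d2 were -2.99, -3.06, -1.44 and -0.93. The study did all operations in the morning, in the first hours of the light period, and the hour at which each single liver was taken is not given in the sources used here.

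In lipid metabolism the lower genes included regulators of fat synthesis. Of 30 genes of lipogenesis and triglyceride storage 6 fell and 1 rose, and log2 fold changes were below 0 in 21 and above 0 in 9. Lpin1, a phosphatidate phosphatase, was at 13.6, 40.9 and 8.34 CPM after PH against 122, 132 and 167 CPM after sham (log2 fold change -2.52 ± 0.45, adjusted p = 4.25e-04). Its relative Lpin2 was at 68.2, 136 and 95.3 CPM after PH against 192, 239 and 314 CPM after sham (log2 fold change -1.29 ± 0.27, adjusted p = 0.00182, and -0.84 within mix 18). Thrsp (Spot 14), a lipogenic regulator, was at 18.7, 22.4 and 15.5 CPM after PH against 92.5, 120 and 106 CPM after sham (log2 fold change -2.42 ± 0.36, adjusted p = 6.60e-05). The 3 genes did not overlap between groups, with the widest spread in Lpin1 after PH. Mlxipl (ChREBP), the glucose-responsive factor, was at 49.5, 41.6 and 48.9 CPM after PH against 77.9, 149 and 118 CPM after sham (log2 fold change -1.29 ± 0.23, adjusted p = 3.68e-04). The enzymes Acacb (log2 fold change -1.51) and Scd1 (log2 fold change -1.34) were called lower as well. Not all regulators of the list lay below 0, as Srebf1 (log2 fold change 0.996) and Pparg (log2 fold change 0.37) lay above it and were not called. Fatty acid synthase (Fasn) was not called (log2 fold change -0.45, adjusted p = 0.34), nor were Dgat2 (log2 fold change -0.85, adjusted p = 0.00653), Fads1 (log2 fold change -0.11, adjusted p = 0.77) and Elovl5 (log2 fold change 0.04, adjusted p = 0.93). The member that rose was Fabp4, a fatty acid carrier, at 7.18, 8.18 and 13.1 CPM after PH against 2.93, 0 and 4.59 CPM after sham (log2 fold change 1.43, adjusted p = 0.0628), and the call was lost without PH replicate 2 (1.54), without PH replicate 3 (1.24), without sham replicate 1 (1.36) and without sham replicate 2 (1.17). Gpcpd1, a glycerophosphocholine phosphodiesterase that no list held, fell 6.05-fold, at 22.2, 20.3 and 25 CPM after PH against 134, 120 and 144 CPM after sham (log2 fold change -2.60 ± 0.38, adjusted p = 4.79e-05).

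Of 35 genes of fatty acid oxidation and ketogenesis 1 rose and 3 fell, beside 5.94% higher and 4.14% lower among all genes. The number lower was 5 without PH replicate 1 and 1 without sham replicate 2. Acsl1, which activates fatty acids, was at 101, 106 and 89.4 CPM after PH against 148, 309 and 219 CPM after sham (log2 fold change -1.16 ± 0.21, adjusted p = 4.34e-04), and the call was lost without sham replicate 2 (-0.88). The peroxisomal thiolase Acaa1b was at 189, 148 and 109.7 CPM after PH against 234, 566 and 349 CPM after sham (log2 fold change -1.34 ± 0.31, adjusted p = 0.00454), and the call was lost without sham replicate 2 (-0.96). Both thus lay under 2-fold without the sham library that held the highest value. Angptl4, a lipase inhibitor, was at 12.2, 17.8 and 13.1 CPM after PH against 30.5, 36.5 and 36.4 CPM after sham (log2 fold change -1.19 ± 0.36, adjusted p = 0.0263). Acot1, a target of PPAR alpha, rose, at 35.9, 45.2 and 62 CPM after PH against 2.34, 30 and 14.9 CPM after sham (log2 fold change 1.79, adjusted p = 0.0311), and the call was lost without sham replicate 1 (1.23). Cpt1a, the gate of mitochondrial oxidation, was not called (log2 fold change -0.38, adjusted p = 0.12).

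Among 30 genes of glucose metabolism 1 rose and 2 fell, beside 5.94% higher and 4.14% lower among all genes. Pkm, the pyruvate kinase of growing cells, rose, at 40.2, 52.6 and 51.2 CPM after PH against 19.3, 19.6 and 21.8 CPM after sham (log2 fold change 1.23 ± 0.22, adjusted p = 4.01e-04). Glycogen synthase (Gys2) was at 28.7, 45.5 and 25 CPM after PH against 60.3, 86.1 and 79.3 CPM after sham (log2 fold change -1.09, adjusted p = 0.00254), and the call was lost without PH replicate 1 (-0.97) and without PH replicate 3 (-0.96). The fall of Gys2 was thus close to 2-fold and the rise of Pkm was not lost without any library. The gluconeogenic genes Pck1 (log2 fold change -0.51, adjusted p = 0.2) and G6pc (log2 fold change -0.60, adjusted p = 0.31) were not called. Of 26 genes of cholesterol synthesis and uptake 2 fell and none rose, beside the same shares of all genes. Fdps, of the mevalonate pathway, was at 15.8, 7.82 and 11.9 CPM after PH against 27.5, 32.6 and 28 CPM after sham (log2 fold change -1.37, adjusted p = 0.0287), and the call was lost without PH replicate 2 (-1.02). Tm7sf2, a sterol reductase, was at 59.6, 64 and 36.9 CPM after PH against 146, 84.8 and 99.9 CPM after sham (log2 fold change -1.01, adjusted p = 0.00134), and the call was lost without PH replicate 3 (-0.85) and without sham replicate 1 (-0.76). Sqle, a rate-setting enzyme, was not called (log2 fold change -0.68, adjusted p = 0.13).

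Of 45 genes of amino acid catabolism 5 fell, none rose, and 37 had a log2 fold change below 0 (median -0.45, and -0.38 within mix 18). Csad, which makes hypotaurine, fell most, at 14.4, 12.1 and 5.96 CPM after PH against 36.9, 103 and 75 CPM after sham (log2 fold change -2.57 ± 0.38, adjusted p = 5.13e-05). Histidine ammonia-lyase (Hal) was at 289.9, 263 and 222 CPM after PH against 722, 502 and 601 CPM after sham (log2 fold change -1.24 ± 0.18, adjusted p = 4.58e-05). Bckdha, of branched-chain breakdown, was at 19.4, 16.7 and 13.1 CPM after PH against 34.6, 44.3 and 35.2 CPM after sham (log2 fold change -1.14 ± 0.17, adjusted p = 5.07e-05). None of the 3 overlapped between the groups. Agxt, which clears glyoxylate, was at 64.6, 64 and 44.1 CPM after PH against 108, 123 and 131 CPM after sham (log2 fold change -1.04 ± 0.19, adjusted p = 4.94e-04), and the call was lost without PH replicate 3 (-0.91) and without sham replicate 3 (-0.96). Gnmt (log2 fold change -0.08, adjusted p = 0.9) and Mat1a (log2 fold change -0.21, adjusted p = 0.65), of methionine metabolism and abundant, were not called.

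Genes that are higher in male than in female mouse liver fell in 7 of 30 cases, none rose, and 27 had a log2 fold change below 0 (median -0.61, -0.94 within mix 18 and -0.28 without sham replicate 2). Cyp2u1, a fatty acid hydroxylase, was at 25.1, 35.6 and 34.6 CPM after PH against 103, 121 and 135 CPM after sham (log2 fold change -1.91 ± 0.20, adjusted p = 4.74e-07). Mup21, a major urinary protein, was at 251, 160.02 and 169 CPM after PH against 615, 965 and 518 CPM after sham (log2 fold change -1.85 ± 0.27, adjusted p = 4.74e-05). Keg1, a glycine acyltransferase, was at 89.7, 77.9 and 46.5 CPM after PH against 267, 189 and 218 CPM after sham (log2 fold change -1.63 ± 0.29, adjusted p = 4.11e-04). Each had all PH libraries below all sham libraries, as had Ugt2b1, a glucuronosyltransferase, at 299, 229 and 253 CPM after PH against 669, 553 and 501 CPM after sham (log2 fold change -1.14 ± 0.18, adjusted p = 1.57e-04). The more abundant Mup3 (log2 fold change -0.44, adjusted p = 0.34) and Mup7 (log2 fold change -0.69, adjusted p = 0.2) overlapped between groups. The urinary protein genes are near copies of each other, so counts of single members are uncertain. Of 31 female-biased genes 3 fell and none rose (median 0.01). Cyp4b1 was at 1.44, 0 and 0 CPM after PH against 12.3, 15.7 and 11.9 CPM after sham (log2 fold change -4.78 ± 0.61, adjusted p = 9.69e-06), a ratio of sham over PH in summed counts of 31.7-fold (8.44 to 268), and its fitted value was -7.59 without PH replicate 1. Cyp2a4 was at 0, 3.56 and 0 CPM after PH against 8.79, 13 and 16.8 CPM after sham (log2 fold change -2.76 ± 0.63, adjusted p = 0.00423), with -1.98 within mix 18 and -7.59 without PH replicate 2. The third, Cyp2g1, was near 0 in all libraries, at 0, 0.711 and 0 CPM after PH against 4.1, 0 and 3.06 CPM after sham (log2 fold change -2.69, adjusted p = 0.0692, and -5.41 without PH replicate 2), and the call was lost without PH replicate 1 (-2.28), without PH replicate 3 (-2.46), without sham replicate 1 (-2.34) and without sham replicate 3 (-2.60).

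Enzymes of foreign compounds moved both ways, with 4 higher and 4 lower of 54 cytochromes P450, near the shares of all genes, and the number higher was 7 without PH replicate 3. Cyp4a14, a fatty acid hydroxylase and target of PPAR alpha, was at 158, 384 and 218 CPM after PH against 17, 31.3 and 78.9 CPM after sham (log2 fold change 2.51 ± 0.40, adjusted p = 1.17e-04). Its paralog Cyp4a10 was at 396, 558 and 551 CPM after PH against 97.8, 237 and 238 CPM after sham (log2 fold change 1.40 ± 0.38, adjusted p = 0.0137). Cyp4a31 was at 40.2, 70.4 and 45.3 CPM after PH against 13.5, 24.8 and 25.7 CPM after sham (log2 fold change 1.34 ± 0.35, adjusted p = 0.0106), and the call was lost without PH replicate 2 (1.0). The Cyp4a genes are close paralogs whose 3' ends may share reads, so their single values are uncertain. Cyp2c55 was at 56, 65.4 and 41.7 CPM after PH against 21.1, 0 and 18.8 CPM after sham (log2 fold change 1.82 ± 0.34, adjusted p = 7.44e-04). Cyp3a11, the main drug-metabolizing CYP3A of mouse liver, was at 3576, 3085 and 3185 CPM after PH against 1601, 2146 and 2078 CPM after sham, with all PH libraries above all sham libraries by less than 2-fold (log2 fold change 0.76, adjusted p = 0.0561). Cyp2e1, which oxidizes ethanol, was not called (log2 fold change -0.40, adjusted p = 0.25). Among 45 genes of conjugation 3 rose and 2 fell, near the shares of all genes, and the number lower was 5 without PH replicate 1, 4 without sham replicate 2 and 4 without sham replicate 3. The glutathione transferase Gstm2 was at 559, 485 and 685 CPM after PH against 171, 201 and 162 CPM after sham (log2 fold change 1.70 ± 0.27, adjusted p = 1.30e-04). Gstm3 was at 98.3, 122 and 109.7 CPM after PH against 22.3, 39.1 and 44 CPM after sham (log2 fold change 1.65 ± 0.28, adjusted p = 2.70e-04). Gsta1 was at 11.5, 16.7 and 33.4 CPM after PH against 2.34, 0 and 5.74 CPM after sham (log2 fold change 2.37 ± 0.53, adjusted p = 0.00359). These were the 3 that rose, all without overlap between groups. Sult2a8, a sulfotransferase, was lower, at 146, 61.9 and 63.2 CPM after PH against 397, 404 and 216 CPM after sham (log2 fold change -1.90 ± 0.31, adjusted p = 1.61e-04).

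In bile formation the sterol exporter was lower. Its subunit Abcg5 was at 26.6, 39.8 and 25 CPM after PH against 84.3, 69.1 and 121 CPM after sham (log2 fold change -1.56 ± 0.22, adjusted p = 4.37e-05). The other subunit, Abcg8, was at 26.6, 37.3 and 40.5 CPM after PH against 108, 112 and 157 CPM after sham (log2 fold change -1.87 ± 0.24, adjusted p = 1.06e-05). They were the 2 of 17 genes of bile acid and organic anion transport that fell, and none rose. Slc10a1 (NTCP), the bile acid importer, was at 307, 269 and 230.03 CPM after PH against 418, 496 and 373 CPM after sham, with all PH libraries below all sham libraries by less than 2-fold (log2 fold change -0.67, adjusted p = 0.0247). The exporters Abcb11 (log2 fold change -0.48, adjusted p = 0.21) and Abcc2 (log2 fold change -0.11, adjusted p = 0.71) were not called. Of 17 genes of bile acid synthesis Nr1h4 was the 1 that fell, and the number lower was 3 without PH replicate 1 and 2 without sham replicate 3. Cyp7a1, the rate-limiting enzyme, was at 95.4, 45.2 and 109.7 CPM after PH against 96.1, 96.5 and 127 CPM after sham (log2 fold change -0.43, adjusted p = 0.57). Cyp8b1, which makes cholic acid, was at 751, 291 and 331 CPM after PH against 678, 1274 and 637 CPM after sham (log2 fold change -0.91, adjusted p = 0.11, and -1.62 within mix 18).

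**Figure D3:**
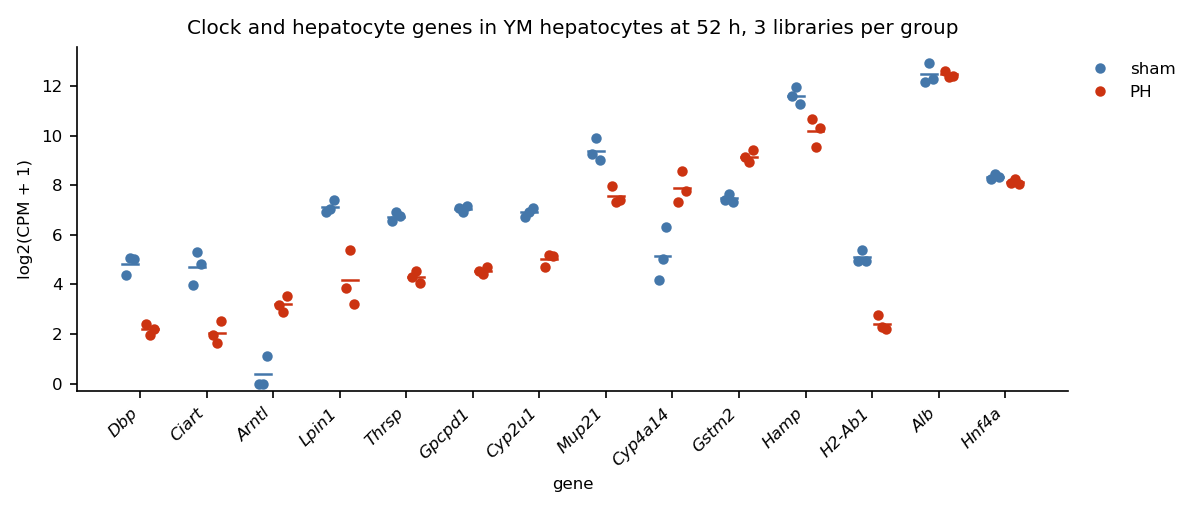
Levels of 14 clock and hepatocyte genes on the scale of log2(CPM + 1) in the 3 sham libraries (blue) and the 3 PH libraries (red) of YM at 52 h, with a bar at each group's mean. Red lies below blue for Dbp, Ciart, Lpin1, Thrsp, Gpcpd1, Cyp2u1, Mup21, Hamp and H2-Ab1 and above it for Arntl, Cyp4a14 and Gstm2, while the groups overlap for Alb and Hnf4a.

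Of 32 acute phase genes, which inflammation and surgery induce, 2 rose and 4 fell, beside 5.94% higher and 4.14% lower among all genes (median 0.04, and -0.33 within mix 18), and the number higher was 0 without PH replicate 1, 4 without sham replicate 1, 1 without sham replicate 2 and 0 without sham replicate 3. Saa1 was at 5987, 3057 and 3320.5 CPM after PH against 6678, 5249 and 2552 CPM after sham (log2 fold change -0.23, adjusted p = 0.77). Saa2 was at 4028, 2205 and 2055 CPM after PH against 5528, 3089 and 1751 CPM after sham (log2 fold change -0.32, adjusted p = 0.71). Both overlapped between the groups. Lcn2, an iron-scavenging lipocalin, was called higher, at 4063, 1639.7 and 1903 CPM after PH against 2044, 457 and 600.01 CPM after sham (log2 fold change 1.29 ± 0.45, adjusted p = 0.052), with groups that overlapped, a value of 0.52 within mix 18, and 2.26 without sham replicate 1, and the call was lost without PH replicate 1 (0.77), without sham replicate 2 (0.95) and without sham replicate 3 (1.01). Steap4, a metalloreductase, was at 592, 251 and 333 CPM after PH against 229.6, 169.6 and 139.8 CPM after sham (log2 fold change 1.12, adjusted p = 0.0166), with 0.55 within mix 18, and the call was lost without PH replicate 1 (0.69) and without sham replicate 3 (0.96). Both rises thus hung on single libraries. Hepcidin (Hamp), the hormone that limits iron uptake (chr7:30942368-30944032), was lower, at 1628, 755 and 1272 CPM after PH against 3108, 4028 and 2457 CPM after sham (log2 fold change -1.39 ± 0.31, adjusted p = 0.0031). Its paralog Hamp2 was lower too, at 16.5, 14.6 and 19.1 CPM after PH against 107, 91.3 and 88.1 CPM after sham (log2 fold change -2.56 ± 0.35, adjusted p = 1.93e-05). Orm3, an acid glycoprotein, was called lower (log2 fold change -1.43, adjusted p = 0.0022), and the call was lost without sham replicate 1 (-0.95). Saa4 was called lower as well (log2 fold change -1.28, adjusted p = 0.0227), and the call was lost without PH replicate 3 (-1.03).

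Of 20 genes of the immediate early and cytokine response 2 rose and 1 fell, beside 5.94% higher and 4.14% lower among all genes. Klf6 was at 33.7, 30.2 and 38.1 CPM after PH against 11.1, 5.22 and 11.5 CPM after sham (log2 fold change 1.70 ± 0.27, adjusted p = 1.52e-04). Atf3, a stress factor, was at 139, 50.9 and 75.1 CPM after PH against 56.2, 27.4 and 15.3 CPM after sham (log2 fold change 1.42, adjusted p = 0.0473), with overlapping groups, 0.50 within mix 18, and 2.17 without sham replicate 1, and the call was lost without PH replicate 1 (0.90), without sham replicate 2 (1.35) and without sham replicate 3 (0.98). Nfkbia, the inhibitor of NF-kappaB, fell, at 40.2, 40.5 and 33.4 CPM after PH against 115, 65.2 and 86.2 CPM after sham (log2 fold change -1.23 ± 0.21, adjusted p = 2.34e-04). The groups of Klf6 and of Nfkbia did not overlap, and neither lost its call without any library. Jun, Jund and Stat3 were not called, with log2 fold changes of 0.14, 0.40 and -0.25, and Myc was not analysed here. Among 25 growth factors, receptors and binding proteins 2 rose and 2 fell, beside the same shares of all genes. Tnfrsf12a (Fn14), the TWEAK receptor of injured liver, was at 5.74, 12.8 and 7.15 CPM after PH against 2.34, 0 and 1.53 CPM after sham (log2 fold change 2.52 ± 0.62, adjusted p = 0.00618). Tgfbr2, a receptor of TGF beta, was at 12.2, 9.96 and 11.9 CPM after PH against 5.27, 0 and 4.21 CPM after sham (log2 fold change 1.5 ± 0.41, adjusted p = 0.0131). The insulin receptor (Insr) fell, at 28, 29.2 and 25 CPM after PH against 63.3, 61.3 and 55.1 CPM after sham (log2 fold change -1.10 ± 0.18, adjusted p = 1.96e-04). Klb, the co-receptor of FGF21, was called lower, at 4.31, 6.4 and 2.38 CPM after PH against 8.2, 13 and 12.6 CPM after sham (log2 fold change -1.14, adjusted p = 0.0334), and the call was lost without PH replicate 3 (-0.98) and without sham replicate 3 (-0.98). The mitogen receptors Met (log2 fold change -0.40, adjusted p = 0.0714) and Egfr (log2 fold change -0.42, adjusted p = 0.073) had all PH libraries below all sham libraries by less than 2-fold, and Igf1, Igfbp1 and Igfbp2 were not called, with log2 fold changes of -0.12, -0.50 and 0.07.

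By zone of the lobule, 3 of 23 pericentral genes rose and none fell, and 2 of 24 periportal genes fell and none rose, beside 5.94% higher and 4.14% lower among all genes. Beside Lect2, the amino acid transporter Slc1a4 rose, at 28.7, 30.2 and 31 CPM after PH against 2.93, 2.61 and 6.51 CPM after sham (log2 fold change 2.68 ± 0.35, adjusted p = 1.40e-05). The haem enzyme Cpox was at 75.4, 63.3 and 94.2 CPM after PH against 29.9, 19.6 and 27.6 CPM after sham (log2 fold change 1.51 ± 0.22, adjusted p = 5.20e-05). On the periportal side, beside Hal, the protease Ctsc was at 151, 90 and 107 CPM after PH against 374, 206 and 239.7 CPM after sham (log2 fold change -1.25 ± 0.21, adjusted p = 2.28e-04), and the call was lost without sham replicate 1 (-0.96). The abundant zone markers were not among these, as the pericentral Cyp1a2 (log2 fold change 0.19, adjusted p = 0.73) and Rgn (log2 fold change -0.03, adjusted p = 0.97) and the periportal Cyp2f2 (log2 fold change -0.75, adjusted p = 0.1) were not called. Of 18 fetal and progenitor markers 3 rose and 1 fell, and the number higher was 5 without sham replicate 2. Anxa2, a membrane-binding annexin, was at 14.4, 25.6 and 23.8 CPM after PH against 8.2, 5.22 and 9.19 CPM after sham (log2 fold change 1.40 ± 0.27, adjusted p = 7.86e-04). Vim (vimentin) was at 8.61, 6.4 and 5.96 CPM after PH against 2.93, 3.91 and 2.3 CPM after sham (log2 fold change 1.31, adjusted p = 0.0356), and the call was lost without PH replicate 1 (1.15) and without sham replicate 3 (1.09). Spp1 (osteopontin) was lower, at 3.59, 0.711 and 3.58 CPM after PH against 15.2, 10.4 and 9.57 CPM after sham (log2 fold change -2.49 ± 0.61, adjusted p = 0.00609). Sox9, a factor of ductal cells, was at 123, 96.7 and 107 CPM after PH against 48.6, 77 and 50.5 CPM after sham, with all PH libraries above all sham libraries by less than 2-fold (log2 fold change 0.94, adjusted p = 0.0159). Spp1 and Sox9, both also markers of cholangiocytes, thus differed in opposite directions. Afp was not analysed here.

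Summed markers of Kupffer cells and of endothelial cells overlapped between the groups, whereas those of leukocytes, erythroid cells, cholangiocytes and stellate cells did not. No tested marker of these lists was at 0 in all 6 libraries. Summed markers of Kupffer cells and macrophages were 530.4 to 683 CPM after PH and 531 to 685 CPM after sham, those of liver endothelial cells 347 to 416 CPM after PH and 376 to 494 CPM after sham, and those of stellate cells and fibroblasts 309 to 327 CPM after PH and 270 to 299.8 CPM after sham. In the leukocyte list, with 6 of 17 members tested, 3 fell and none rose, and the sums were 33.4 to 38 CPM after PH and 82.2 to 112 CPM after sham. H2-Ab1, of MHC class II (chr17:34257689-34269419), was at 5.74, 3.91 and 3.58 CPM after PH against 29.9, 40.4 and 29.9 CPM after sham (log2 fold change -2.86 ± 0.39, adjusted p = 2.32e-05). H2-Aa, its partner chain, was at 8.61, 7.11 and 4.77 CPM after PH against 38.1, 26.1 and 24.9 CPM after sham (log2 fold change -2.06 ± 0.38, adjusted p = 5.41e-04). The invariant chain Cd74 was at 2.15, 2.13 and 4.77 CPM after PH against 12.3, 10.4 and 13 CPM after sham (log2 fold change -2.2 ± 0.45, adjusted p = 0.0014). The 3 belong to one pathway of antigen presentation, whereas Ptprc (CD45), carried by all leukocytes, was at 15.8, 16 and 8.34 CPM after PH against 21.7, 5.22 and 11.9 CPM after sham and was not called (log2 fold change 0.03, adjusted p = 0.98). Of 18 Kupffer cell and macrophage markers 1 rose and none fell. It was the scavenger receptor Marco, at 48.1, 63.3 and 29.8 CPM after PH against 0, 0 and 6.13 CPM after sham (log2 fold change 4.00 ± 0.62, adjusted p = 1.03e-04, and 9.50 without sham replicate 3, the only sham library above 0), while Clec4f, C1qb and Cd5l had log2 fold changes of -0.68, 0.09 and 0.44 and were not called.

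Of 17 endothelial markers 1 rose, Oit3 (log2 fold change 1.51, adjusted p = 0.0201, and 1.60 within mix 18), and none fell. Of 17 stellate cell and fibroblast markers 1 rose and 1 fell. Lum (lumican) was at 12.9, 10.3 and 14.3 CPM after PH against 7.61, 3.91 and 4.98 CPM after sham (log2 fold change 1.06, adjusted p = 0.0427), and the call was lost without PH replicate 1 (1.0), without PH replicate 3 (0.98), without sham replicate 2 (0.96) and without sham replicate 3 (0.90). Colec11, a collectin, was at 7.89, 9.96 and 8.34 CPM after PH against 17.6, 17 and 21.1 CPM after sham (log2 fold change -1.07, adjusted p = 0.0109), and the call was lost without PH replicate 1 (-1.0) and without sham replicate 3 (-0.94). Sparc, a matrix protein, was at 73.2, 82.1 and 72.7 CPM after PH against 39.8, 36.5 and 41.4 CPM after sham, with all PH libraries above all sham libraries by just under 2-fold (log2 fold change 0.95, adjusted p = 0.00183). The calls of Lum and Colec11 were thus near the 2-fold limit. Cholangiocyte markers were tested in 3 of 12 cases, with sums of 102 to 134 CPM after PH and 68.2 to 100.4 CPM after sham. Most of these sums was Sox9, while Spp1 of the same list was called lower. The 6 erythroid markers summed to 47.7 to 53.7 CPM after PH and 86.7 to 101 CPM after sham, without overlap, and none was called. Their members did not move as one, as 3 had a log2 fold change above 0 and 3 below. Only 2 of the 6 had groups that did not overlap. Of the neutrophil list 1 gene, Il1b, was tested, at 2.87, 0 and 3.58 CPM after PH against 1.76, 0 and 0.766 CPM after sham. The part of these cells in the values above was not tested.

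Of the genes with the largest falls, 4 that no list held and 1 of the male-biased list are given next. Gm43189, a predicted gene, was at 1.44, 0 and 0 CPM after PH against 17.6, 18.3 and 18.8 CPM after sham (log2 fold change -5.29 ± 0.67, adjusted p = 8.74e-06), a ratio of sham over PH in summed counts of 46.1-fold (12.4 to 387), with a fitted value of -8.10 without PH replicate 1. The transcript 0610031O16Rik was at 1.44, 0.711 and 0 CPM after PH against 15.8, 24.8 and 16.5 CPM after sham (log2 fold change -4.40 ± 0.67, adjusted p = 7.70e-05). Gm816 was at 9.33, 3.91 and 13.1 CPM after PH against 18.2, 109.6 and 36.4 CPM after sham (log2 fold change -2.70 ± 0.56, adjusted p = 0.0017). What these 3 do is not described in the sources used here. Ppp1r3g, which brings protein phosphatase to glycogen, was at 0, 2.84 and 0 CPM after PH against 6.44, 10.4 and 14.2 CPM after sham (log2 fold change -2.77 ± 0.67, adjusted p = 0.00555), with -7.28 without PH replicate 2, the only PH library above 0. Moxd1, of the male-biased list, was at 2.87, 1.42 and 2.38 CPM after PH against 66.8, 10.4 and 3.83 CPM after sham (log2 fold change -3.74, adjusted p = 0.0439), and the call was lost without PH replicate 2 (-3.33) and without sham replicate 1 (-1.47).

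The effect of PH was set beside that in young females (YF, 11 to 14 weeks) and very old males (VOM, 100 weeks) at 52 h and in YM at 4 days, each with its own 3 PH and 3 sham libraries, in 1 model. Called higher and lower were 370 and 237 genes in YF (3.35% and 2.15%), 808 and 943 in VOM (7.31% and 8.54%) and 298 and 213 in YM at 4 days (2.7% and 1.93%). Of the genes called higher in YM at 52 h, 37.3% were also called higher in YF, which was 66.2% of the YF genes. Of those called lower 21.9% were, which was 42.2% of the YF genes. Mitotic genes were called higher in 59, 52, 25 and 22 of 61 cases in YM at 52 h, YF, VOM and YM at 4 days, with median log2 fold changes of 4.72, 2.58, 1.70 and 2.31. With genes at 0 in every sham library at their bound the first of these medians was 4.30, and such a bound was not taken for the other groups. Genes of DNA replication were called higher in 24, 17, 8 and 1 of 33 cases, and clock genes were called lower in 6, 10, 3 and 8 of 21. The difference itself between YM and YF passed the test for 2 of the 61 mitotic genes and 0 of the 33 replication genes.

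**Figure D4:**
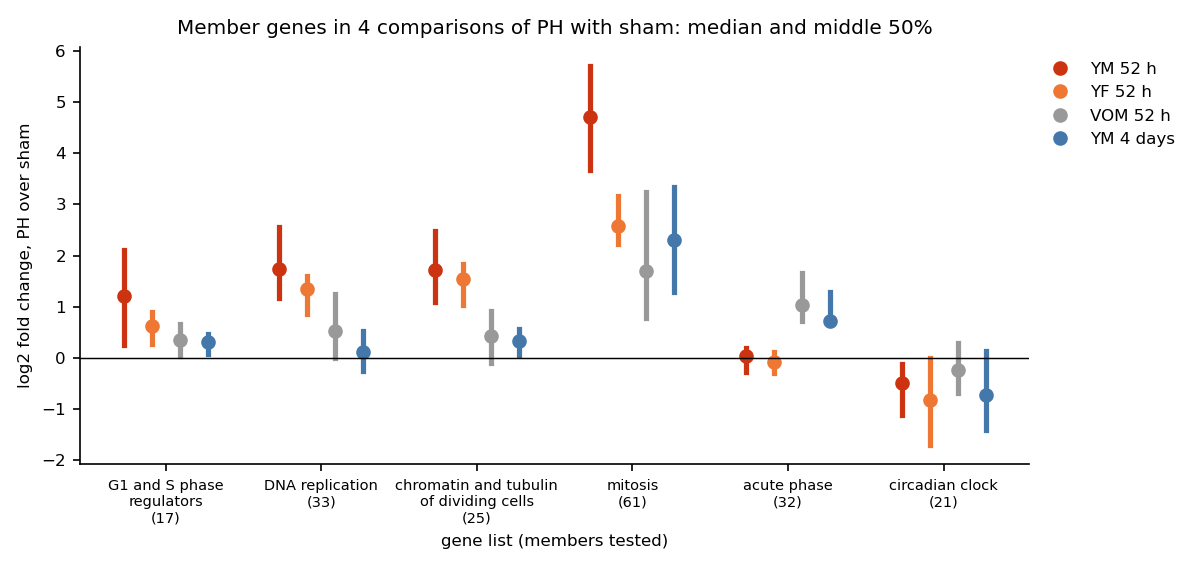
Log2 fold changes of PH over sham for the members tested of 6 gene lists in YM at 52 h (red), YF at 52 h (orange), VOM at 52 h (grey) and YM at 4 days (blue), with dots at medians over genes and bars over the middle 50% of them. The mitosis dot is highest in YM at 52 h (4.72), and the acute phase dots of VOM at 52 h (1.03) and YM at 4 days (0.73) lie above that of YM at 52 h (0.04).

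The difference itself between the effects in YM and YF passed the test for 4 genes with the higher effect in YM and 2 with the lower (0.0362% and 0.0181%), and 1052 genes had an unadjusted p under 0.05. Cdk1 in YF was at 40.8 to 71.8 CPM after PH and 6.57 to 12.3 CPM after sham, and its rise was larger in YM (log2 difference 3.0 ± 0.54, adjusted p = 0.0356). Prc1 in YF was at 98.2 to 208 CPM after PH and 0 to 18.1 CPM after sham (log2 difference 9.13 ± 1.62, adjusted p = 0.0356), a difference fitted against YM sham libraries at 0. Rdh16, a retinol and steroid dehydrogenase, was in YF at 47.5 to 72.7 CPM after PH and 114 to 126 CPM after sham, and in YM at 46.6, 52.6 and 52.4 CPM after PH against 36.9, 36.5 and 45.2 CPM after sham (log2 difference 1.32 ± 0.21, adjusted p = 0.0191). Its levels in the sexes overlapped after PH and did not overlap after sham. Cyp2u1 in YF was at 21.8 to 23 CPM after PH and 23.8 to 31.6 CPM after sham, near the YM level after PH (log2 difference -1.55 ± 0.30, adjusted p = 0.0788). Tmem214 in YF was at 41 to 48.5 CPM after PH and 17.9 to 29.6 CPM after sham, opposite in direction to YM, where it was at 27.3, 24.5 and 20.3 CPM after PH against 38.1, 49.6 and 33.7 CPM after sham (log2 difference -1.69 ± 0.28, adjusted p = 0.0191). Alox5ap, of leukotriene synthesis, in YF was at 2.34 to 3.83 CPM after PH and 9.04 to 12.2 CPM after sham, and in YM at 8.61, 6.76 and 0 CPM after PH against 2.34, 0 and 0 CPM after sham (log2 difference 4.64 ± 0.93, adjusted p = 0.087). The number of genes called was 20 by DESeq2, 26 without the VOM libraries in the model, 3 without YF sham replicate 1 and 0 without YF sham replicate 2, where edgeR gave 955 genes with an unadjusted p under 0.05.

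Between YM at 52 h and at 4 days the effects differed for 395 genes with the 52 h effect higher and 323 with it lower (3.58% and 2.92%). The higher side held 15 of 33 genes of DNA replication, 14 of 61 of mitosis and 10 of 25 of chromatin and tubulin. Rrm2 at 4 days was at 6.11 to 10.4 CPM after PH and 8.96 to 24.5 CPM after sham (log2 difference 5.36 ± 0.63, adjusted p = 7.94e-05). Tuba1b at 4 days was at 85.1 to 107 CPM after PH and 66.9 to 85.5 CPM after sham (log2 difference 2.17 ± 0.25, adjusted p = 7.37e-05). Ndc1 at 4 days was at 21.7 to 26 CPM after PH and 23 to 23.9 CPM after sham (log2 difference 2.2 ± 0.28, adjusted p = 9.10e-05). In all 3 genes the ranges after PH and after sham overlapped at 4 days. The lower side held 13 of 32 acute phase genes, and 12 acute phase genes were called higher after PH at 4 days. Orm3 at 4 days was at 748 to 1080 CPM after PH and 188 to 279.7 CPM after sham, opposite in direction to 52 h (log2 difference -3.48 ± 0.42, adjusted p = 7.94e-05). Spp1 at 4 days was at 35.2 to 64 CPM after PH and 4.08 to 8.37 CPM after sham, likewise opposite (log2 difference -5.68 ± 0.70, adjusted p = 7.94e-05). Tpt1-ps5, a pseudogene whose reads may come from its parent gene, differed too (log2 difference 3.24 ± 0.42, adjusted p = 1.24e-04). With the mix as a covariate the counts were 78 and 71 in place of 395 and 323.

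Between YM and VOM at 52 h the effects differed for 870 genes with the YM effect higher and 610 with it lower (7.88% and 5.52%). The VOM sham libraries stand apart, as their 10 largest genes took 48.3% to 53% of the counts, against 6.34% to 10.6% in the 6 YM libraries, their TMM factors were 0.445 to 0.473, and 11 to 16 genes exceeded the number of transcripts that the UMI correction can give. Sgo2a, which guards centromere cohesion and rose in YM (log2 fold change 5.25, adjusted p = 5.98e-06), was in VOM at 0 to 8.65 CPM after PH and 123817 to 145772 CPM after sham. The part of these libraries in the VOM differences was not tested. With that limit, 26 of 61 mitotic and 12 of 33 replication genes had the higher effect in YM and none the higher effect in VOM. Acute phase genes had the higher effect in VOM in 14 of 32 cases and macrophage markers in 7 of 18.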

How the data were processed

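Hepatocyte RNA was measured by 3' end sequencing after CEL-seq2. The deposited expected counts were made by the authors with the CEL-seq2 pipeline from reads aligned to GRCm38, and the submitters' processing notes name bcl2fastq 2.20. The authors counted UMIs, corrected them for the 4096 possible UMIs, left out genes with low expression and 9 further genes, and adjusted the datasets with ComBat-Seq, and the part of these steps in zeros and large counts was not tested. The table held 11049 genes in 133 columns, each matched to a sample by its title. As 30966 values in 448 genes were not whole, counts were rounded. Symbols came from GENCODE vM21 for 11020 identifiers, and 4 list symbols were matched through RefSeq synonyms.

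Groups followed the titles. The 24 libraries of the 4 PH groups and their shams entered 1 model with a coefficient per group (edgeR 4.0.16 quasi-likelihood test in R 4.3.3, TMM scaling, a filter of 0.5 CPM reached in 1 or more libraries). A call needed a Benjamini-Hochberg adjusted p under 0.1 and a 2-fold change, and the standard error was the log2 fold change over the square root of F. For 3 libraries a group, permuting the labels exactly gives no p under 0.1, so this was not used. On simulated data of 11045 genes for this comparison, edgeR called 33% of genes changed 2-fold, 88% of those changed 4-fold and 7 unchanged genes. DESeq2 1.42.0, RLE factors, other filters and thresholds, fits with the mix, the replicate block or other libraries, and fits without each library were the alternatives. None of the 6 pairs of libraries within a group was a duplicate.

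The gene lists and members were chosen with earlier results of these data known. Genes named in the text were the 15 largest non-overlapping changes per direction with a mean of at least 10 counts, up to 4 called genes per direction by adjusted p and 3 abundant uncalled genes per list, a set of key genes, and the 6 genes of lowest adjusted p in each difference of effects. Some of these are not reported here, and Lig1, Mcm5, Mcm6, Ccnb2, Ncapd2 and Cenpa were named after their values were seen, by adjusted p among genes with a promoter match. Cdkn1b, Cdkn1c, Acacb, Scd1, Srebf1 and Pparg were likewise named after their values were seen. Promoter sequences are from RefSeq on GRCm38.p6. Python 3.11.15, pandas 2.3.3, NumPy 2.4.6 and matplotlib 3.10.9 made the tables and plots.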

Additional observations from a re-analysis of the deposited data

Results flagged for a closer look

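The effect of PH in YM at 52 h differed from that in another group for the genes given here, where the difference itself was tested in the edgeR model. Against YF, 6 genes passed. The log2 difference of the effects was 9.135 for Prc1, 2.996 for Cdk1, 4.638 for Alox5ap, 1.316 for Rdh16, -1.691 for Tmem214 and -1.551 for Cyp2u1, with a minus sign where the effect was lower in YM. Without YF sham replicate 2 no gene passed by edgeR, where 955 had an unadjusted p under 0.05, and DESeq2 was not run without that library.

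Against YM at 4 days, 718 genes passed. Those of lowest adjusted p were Tuba1b (2.167), Rrm2 (5.359), Ndc1 (2.199) and Tpt1-ps5 (3.241), with the effect higher at 52 h, and Spp1 (-5.68) and Orm3 (-3.477), with the effect lower at 52 h.

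Against VOM, 1480 genes passed. Those of lowest adjusted p were Sgo2a (21), Cyp2a5 (18.63), Gsta1 (17.28), Rdm1 (17.11), Afmid (16.02) and Atp4a (15.03), all at 1505 CPM or more in each VOM sham library and at 8.65 CPM or less in each VOM PH library. In these VOM sham libraries 11 to 16 genes exceeded the number of transcripts that the UMI correction can give. The part of these libraries in the differences was not tested. Groups of 3 libraries were not tested for outlying samples.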

How the results depend on the processing

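In YM at 52 h, 656 genes were called higher and 457 lower. The counts were 1287 and 1264 at an adjusted p under 0.1 without a fold minimum, 951 and 890 at 0.05, and 323 and 174 within mix 18, of which 292 and 133 were among the genes called with all libraries. Fewer libraries entered the last of these. Without any 1 library they ran from 583 to 620 and from 373 to 452, and with DESeq2 they were 592 and 349. No gene called in YM at 52 h was called in the opposite direction under any alternative. Whether equal replicate numbers mark a pairing is not stated in the sources used here. Deviations from the group means correlated at 0.14, -0.14 and 0.16 between PH and sham libraries of the same number. Between libraries of different numbers they correlated at -0.47 to 0.24. With 3 libraries a group these values cannot decide on a pairing. With the replicate block in the 6 libraries, 611 genes were called higher and 334 lower, 540 and 311 of them shared.

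The 6 genes whose effect differed between YM and YF were 20 with DESeq2, 51 with all labelled libraries, those marked X included, 12 with the replicate block and 26 without the VOM libraries, an alternative chosen after seeing the data. Without any 1 library their number ran from 0 to 9, with 3 without YF sham replicate 1 and 0 without YF sham replicate 2, where 955 genes had an unadjusted p under 0.05 by edgeR. With the mix as a covariate the 1480 genes of the difference from VOM were 808 and the 718 of the difference from 4 days were 149. Without any 1 library these ran from 1087 to 1666 and from 535 to 759. The cause of these shifts was not tested. Where a group summed to 1 to 3 counts, calls were still made, and depth leaves their folds within wide counting intervals.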
